A study of Mus musculus with 6 samples.

Results

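The basic helix-loop-helix (bHLH) factors of neurogenesis and their antagonists were followed here in the olfactory epithelium of wild-type and mutant newborn mice. The group holds 10 genes: the neuronal bHLH genes Neurog1, Neurod1, Nhlh1 and Nhlh2, the Hes genes Hes1, Hes5 and Hes6, and the Id genes Id1, Id2 and Id3. Its members are all probe sets whose platform annotation names exactly 1 gene symbol and that symbol is one of these, which gave 16 probe sets for the 10 genes, of 45037 probe sets and 18193 singly named genes in all. Total RNA of the olfactory epithelium came from pups aged 1 day, of mixed C57Black6/J and 129SvJ background, with 3 wild-type pups and 3 mutant pups and 1 array for each. No label gives the mutant allele, and the title of the series says that target genes of KLF7, a transcription factor of the Krüppel-like family, were sought in olfactory sensory neurons.

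Olfactory sensory neurons are made throughout life from basal progenitors. Proneural bHLH proteins pair with E proteins, bind E-box DNA and drive progenitors towards a neuronal fate, first Neurog1 and then Neurod1, with Nhlh1 and Nhlh2 in maturing neurons. Notch signalling induces Hes1 and Hes5, which repress proneural genes, whereas Hes6 can counter Hes1; Id proteins have no DNA-binding basic region and hold E proteins in inactive pairs.

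No member of the group was separated between mutant and wild-type pups by these arrays. Each of the 10 genes had at least 1 probe set bright enough to be tested, with a mean above 5.19 on the log2 scale, 13 of 16 in all; the other 3 were 1 each of Neurog1, Hes5 and Id2. With limma, 0 of the 13 passed the threshold of 0.05, with an adjusted p of 1 for each, and 0 had an unadjusted p under 0.05. Over all 24746 probe sets tested 0 passed (0%), 113 had an unadjusted p under 0.05 (0.457%), and on 651 the groups did not overlap (2.63%). On all 13 member probe sets the groups overlapped. Their median log2 difference, mutant minus wild type, was 0.07, with 6 lower and 7 higher, beside a median of -0.02 and 52.4% lower over all probe sets tested. A p that misses the threshold does not show equal levels. The 0.457% with an unadjusted limma p under 0.05 is far below the fraction of 0.05 that evenly spread p would give. Small p were thus rare in this fit for any probe set, and 0 of 13 members tells little. Limma's 95% interval, which treats the arrays as unpaired and is not adjusted for the number of probe sets, is therefore given for each gene.

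The promoters of these genes are shown because the series sought targets of a Krüppel-like factor, a family that binds CACCC and GC-rich boxes. RefSeq promoters (GRCm38.p6) were matched for 8 of the 10 genes, not for Hes1 and Id1. The 250 bases upstream of the annotated start are printed for 4 genes that stand for commitment (Neurog1), differentiation (Neurod1), Notch output (Hes5) and inhibition (Id3), read 5′ to 3′, with CACCC on either strand (GGGTG on the other) in capitals.
Neurog1, chr13:56252181-56252430, minus strand: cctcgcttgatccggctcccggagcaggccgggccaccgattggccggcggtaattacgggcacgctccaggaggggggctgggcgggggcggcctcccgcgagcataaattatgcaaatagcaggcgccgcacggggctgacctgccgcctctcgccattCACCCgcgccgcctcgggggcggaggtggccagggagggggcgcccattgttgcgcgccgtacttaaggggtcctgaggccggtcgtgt
Neurod1, chr2:79456637-79456886, minus strand: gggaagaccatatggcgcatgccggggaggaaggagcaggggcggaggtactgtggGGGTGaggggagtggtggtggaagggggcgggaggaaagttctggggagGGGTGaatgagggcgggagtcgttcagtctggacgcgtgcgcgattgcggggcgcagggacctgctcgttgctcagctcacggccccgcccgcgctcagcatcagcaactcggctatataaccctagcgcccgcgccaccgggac
Hes5, chr4:154960673-154960922, plus strand: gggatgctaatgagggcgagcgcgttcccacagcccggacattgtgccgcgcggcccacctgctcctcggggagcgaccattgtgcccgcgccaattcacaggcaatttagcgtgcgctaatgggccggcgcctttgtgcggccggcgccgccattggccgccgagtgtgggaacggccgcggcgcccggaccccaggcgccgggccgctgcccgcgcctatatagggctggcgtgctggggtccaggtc
Id3, chr4:136143572-136143821, plus strand: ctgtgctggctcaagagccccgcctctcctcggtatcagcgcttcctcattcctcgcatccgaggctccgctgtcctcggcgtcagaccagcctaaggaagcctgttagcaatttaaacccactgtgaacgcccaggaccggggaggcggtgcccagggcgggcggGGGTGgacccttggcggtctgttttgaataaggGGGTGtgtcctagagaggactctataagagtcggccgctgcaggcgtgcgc
Neurod1 and Id3 each held 2 CACCC motifs in this window, Neurog1 held 1, and Hes5 held 0. Of the 8 genes, 5 held CACCC (Neurog1, Neurod1, Nhlh1, Id2 and Id3), beside 52% of 32851 promoters of that length; Hes6 has 2 annotated starts, both searched. GGGCGG, a GC box, was found on either strand in 6 of the 8, all but Nhlh2 and Hes5, beside 32.7%, and it can share bases with CACCC. The N box that Hes proteins bind, CACNAG, was found on either strand in Nhlh2 and Hes6, 2 of the 8, beside 36.7%. A match of letters is a description and not a binding site.

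As a check of the labels, all 4 Klf7 probe sets were lower on every mutant array than on any wild-type array, with differences from -3.06 to -2.15. Over all probe sets tested, limma's adjusted p was 1 for each of them too (exact permutation p = 0.1). Since no label gives the mutant allele, the position of these probe sets relative to any mutated part of Klf7 is unknown here. Deposited totals ran from 10064207 to 14439788 per array, and the first principal component, with 49.2% of the variance, set wild-type array 3 (141.1) and mutant array 3 (86.6) apart from the other 4 (-69.6 to -40.3). Of 8 measured markers of mature olfactory neurons 7 were lower in the mutant, with a median difference of -0.89 and summed intensities of 5754 to 7455 in wild type and 3313 to 4079 in mutant, and 0 lay at the floor on all arrays. Markers of immature neurons were lower for 8 of 10 (median -0.29; sums of 19503 to 23371 in wild type and 18062 to 19200 in mutant), and those of cycling cells for 8 of 9 measured of 10 listed (median -0.31; 6232 to 7151 and 5260 to 5866), with 0 of either list at the floor on all arrays. The summed signals of these 3 lists did not overlap between the groups, whereas those of every other marker list summed did. For immature neurons the gap was small, with 19200 as the highest mutant sum and 19503 as the lowest wild-type sum. Median log2 levels per array did overlap for mature neurons (9.11 to 9.48 in wild type, 8.49 to 9.33 in mutant). They also overlapped for cycling cells (9.02 to 9.58 and 8.7 to 9.05), but not for immature neurons (10.06 to 10.2 and 9.39 to 10.05). The part of these cells in the values of the bHLH genes was not tested. In whole tissue, fewer cells of a type and less RNA per cell cannot be told apart.

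Neurog1, which commits progenitors to the sensory neuron lineage, had the widest spread of the 10 genes within a group. Its probe set 1438551_at read 7.48, 7.0 and 3.93 on wild-type arrays 1, 2 and 3 and 6.83, 4.34 and 4.87 on mutant arrays 1, 2 and 3 (log2 of the normalized intensity, the scale of all levels here). It was thus high on both arrays numbered 1 and on wild-type array 2, and low on the other 3, so that the groups overlapped. The means were 6.13 ± 1.93 and 5.35 ± 1.31 (SD, n = 3 each), a log2 difference of -0.79 (SE 1.04, limma adjusted p = 1; exact permutation p = 0.7, two-sided, where 3 arrays against 3 cannot give less than 0.1). The 95% interval ran from -3.09 to 1.51, so these arrays set no narrow limit on a change of Neurog1. The difference depended on single arrays: it was -1.89 without wild-type array 3 (limma unadjusted p = 0.0449, adjusted p = 1). It was -1.53 without mutant array 1, -0.55 without mutant array 3 and -0.36 without wild-type array 2. Without mutant array 2 it was -0.28, and without wild-type array 1 it was -0.11. Limma's unadjusted p for these other omissions ran from 0.21 to 0.924. A second Neurog1 probe set, 1450836_at, lay at the floor on 5 of 6 arrays and carried no test. The floor, 3.65, is the level to which the dimmest values were raised.

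**Figure D1:**
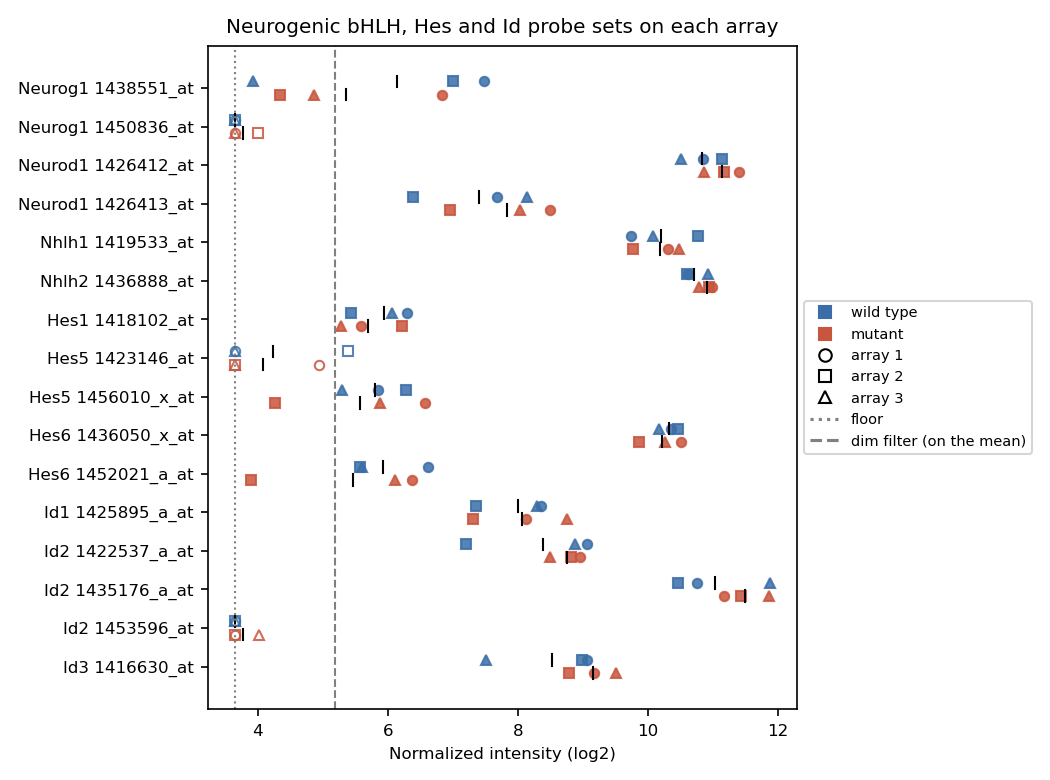
Normalized intensity (log2, horizontal) of the 16 member probe sets on 6 arrays, wild type in blue and mutant in red, with the array number as the symbol, the group mean as a black bar, and open symbols for the 3 probe sets under the dim filter. On each probe set the groups overlap; Neurog1 1438551_at spreads from 3.93 to 7.48 within wild type, whereas Nhlh2 1436888_at stays between 10.60 and 10.98.

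Neurod1, which acts after Neurog1 in differentiating neurons, was bright on all arrays. Its probe set 1426412_at read 10.84, 11.14 and 10.51 in wild type against 11.40, 11.17 and 10.87 in mutant. Each mutant array was above the wild-type array of the same number, by 0.56, 0.03 and 0.36, yet mutant array 3 lay near wild-type array 1, within the wild-type range. The difference was 0.32 (SE 0.23, 95% interval -0.20 to 0.83, limma adjusted p = 1; exact permutation p = 0.2). This was the only one of the 13 probe sets with 1 sign in all 3 such comparisons, which 15.8% of all probe sets tested showed. The dimmer probe set 1426413_at of the same gene gave 7.68, 6.38 and 8.13 against 8.50, 6.96 and 8.04. Its difference of 0.43 (SE 0.60) had the same sign but turned to -0.08 without wild-type array 2.

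Nhlh1 and Nhlh2, a pair of related bHLH factors of postmitotic neurons, overlapped between the groups. Nhlh1 read 9.74, 10.78 and 10.08 in wild type against 10.31, 9.77 and 10.47 in mutant, a difference of -0.01 (SE 0.32, 95% interval -0.72 to 0.69). Its highest and lowest values were both on wild-type arrays, 2 and 1, and the sign turned, to 0.04, with array medians set equal. Nhlh2 had the narrowest interval among these 4 neuronal bHLH genes. It read 10.61, 10.60 and 10.93 in wild type against 10.98, 10.94 and 10.79 in mutant, a difference of 0.19 (SE 0.21, 95% interval -0.27 to 0.64; exact permutation p = 0.2). That interval spans 1.20-fold lower to 1.56-fold higher Nhlh2 in the mutant.

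The 4 tested Hes probe sets, which stand for 3 genes, were all lower in the mutant by their means, with a median difference of -0.24, and none passed. Hes1, a Notch target that also keeps non-neuronal cells from neuronal fate, read 6.30, 5.43 and 6.07 in wild type against 5.59, 6.21 and 5.27 in mutant. Mutant array 2 lay between the upper wild-type arrays and the other mutant arrays were low. The difference was -0.24 (SE 0.68, 95% interval -1.74 to 1.25), and -0.03 without mutant array 3. For Hes5, the other main Notch effector, probe set 1456010_x_at read 5.84, 6.28 and 5.30 in wild type against 6.57, 4.27 and 5.88 in mutant, a difference of -0.23 (SE 0.79, 95% interval -1.98 to 1.51). Here mutant array 1 was the highest of the 6 and mutant array 2 the lowest. The second Hes5 probe set, 1423146_at, lay under the dim filter and at the floor on 4 of 6 arrays. Its 2 readings above the floor were 5.39 on wild-type array 2 and 4.94 on mutant array 1, the arrays on which the first Hes5 probe set was also highest in each group.

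Hes6, which is expressed in committed neuronal precursors, was measured on a bright and a dim probe set. The bright one, 1436050_x_at, read 10.35, 10.46 and 10.17 in wild type against 10.51, 9.86 and 10.27 in mutant, a difference of -0.12 (SE 0.25, 95% interval -0.67 to 0.44). The dim one, 1452021_a_at, read 6.61, 5.57 and 5.60 against 6.36, 3.89 and 6.11, a difference of -0.47 (SE 0.83, 95% interval -2.31 to 1.37). On both, mutant array 2 was the lowest of all arrays and carried the sign. Without it the differences became 0.06 and 0.31 for these Hes6 probe sets and 0.42 for Hes5, while Hes1 stayed lower at -0.50. By the platform's naming, an _x_at probe set holds probes that other transcripts can share, so part of the signal for Hes5 and Hes6 may not be theirs.

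Mutant array 2 also had the lowest summed signal of squamous epithelium markers. The summed intensity of 9 measured squamous keratin and envelope genes, of 10 listed, was 384, 5967 and 310 on wild-type arrays 1, 2 and 3 and 2499, 198 and 1654 on mutant arrays 1, 2 and 3, with 0 of the 9 at the floor on all arrays. Within each group the order of the arrays by this sum was the order of Hes5 1456010_x_at and of Hes6 1436050_x_at, but not of Hes1 or of Hes6 1452021_a_at. Both of the latter were lowest among wild-type arrays on array 2, where the sum was highest, and Hes1 was highest among mutant arrays on array 2, where the sum was lowest. The part of this tissue in the Hes5 and Hes6 values was not tested. With 3 arrays per group and several lists and probe sets compared, a shared order is easily met. In wild type it turned on 384 against 310 for arrays 1 and 3, where Krt13, Krt6a or Krtdap lay at the floor. The order was also not particular to squamous markers. Horizontal basal cell markers, 9 of 9 listed and 7 of them higher in the mutant, had 0 at the floor on all arrays. They summed to 5629, 8273 and 4288 on wild-type arrays 1, 2 and 3 and 9107, 6130 and 6863 on mutant arrays 1, 2 and 3. Within each group this was the same order as for the squamous sum, and the part of these cells was not tested either.

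The 4 tested Id probe sets, which stand for 3 genes, were all higher in the mutant by their means, with a median difference of 0.42, and none passed. No sign of a Hes or Id probe set turned under the 2 other scalings tried. Id1, a target of BMP signalling, read 8.35, 7.36 and 8.29 in wild type against 8.12, 7.31 and 8.76 in mutant, a difference of 0.07 (SE 0.50, 95% interval -1.04 to 1.18). Both arrays numbered 2 were the low ones, irrespective of genotype, and without mutant array 3 the difference was -0.28. Id3, another BMP target, read 9.07, 8.98 and 7.51 in wild type against 9.17, 8.78 and 9.51 in mutant. Its difference of 0.64 (SE 0.46, 95% interval -0.38 to 1.65, limma adjusted p = 1; exact permutation p = 0.4) was the largest positive one and rested on wild-type array 3. Without that array it was 0.13, and without both arrays numbered 3 it was -0.05. Wild-type array 3 stood apart widely, with the lowest value on 27.3% and the highest on 24.2% of all probe sets tested. The same array held the lowest sum of horizontal basal cell markers (4288) and of sustentacular and gland markers. The latter (8 of 10 measured, 7 higher in the mutant, 0 at the floor on all arrays) summed to 8338 to 13735 in wild type and 11846 to 13768 in mutant. The part of these cells in the Id3 value was not tested.

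Id2, an Id gene that differentiated cells also express, was measured on 3 probe sets. Its bright probe set, 1435176_a_at, read 10.76, 10.46 and 11.88 in wild type against 11.18, 11.43 and 11.86 in mutant. On arrays numbered 1 and 2 both mutant values exceeded both wild-type values, by 0.42 and 0.97 for the same numbers, whereas the arrays numbered 3 were alike at -0.02. The difference was 0.46 (SE 0.34, 95% interval -0.29 to 1.20, limma adjusted p = 1; exact permutation p = 0.5). It was 0.88 without wild-type array 3 (limma unadjusted p = 0.00357, adjusted p = 1) and 0.69 without both arrays numbered 3 (unadjusted p = 0.014 and adjusted p = 1 by limma). It was 0.61 without mutant array 1, 0.49 without mutant array 2 and 0.32 without wild-type array 1. Without mutant array 3 it was 0.27, and without wild-type array 2 it was 0.17. Limma's unadjusted p for these other single omissions ran from 0.152 to 0.616, and no p was corrected for the number of settings tried. The second tested probe set, 1422537_a_at, read 9.06, 7.20 and 8.88 in wild type against 8.96, 8.81 and 8.49 in mutant, a difference of 0.37 (SE 0.50, 95% interval -0.73 to 1.48). It was low on wild-type array 2 alone, and without that array its difference was -0.22. The third Id2 probe set, 1453596_at, lay at the floor on 5 of 6 arrays.

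**Figure D2:**
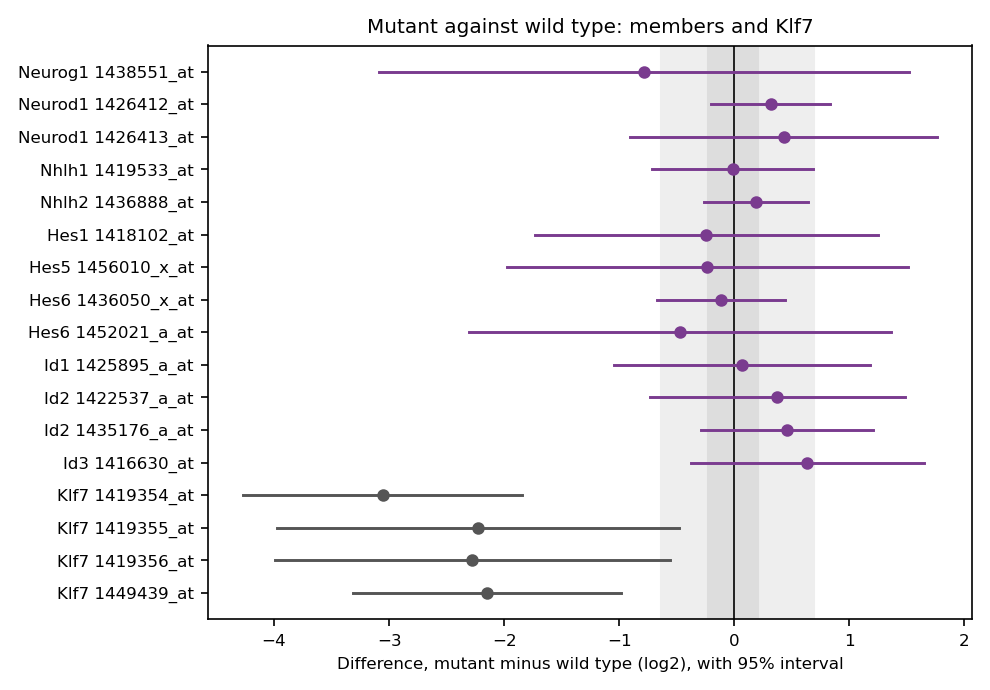
Log2 difference, mutant minus wild type (horizontal, points), with limma's 95% interval (lines) for the 13 tested member probe sets in purple and the 4 Klf7 probe sets in grey; the dark and light bands hold the middle 50% and 90% of all 24746 probe sets tested. All 13 member intervals cross 0, from Neurog1 at -3.09 to 1.51 to the narrow one of Nhlh2 at -0.27 to 0.64, and the 4 Klf7 intervals lie below 0.

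**Figure D3:**
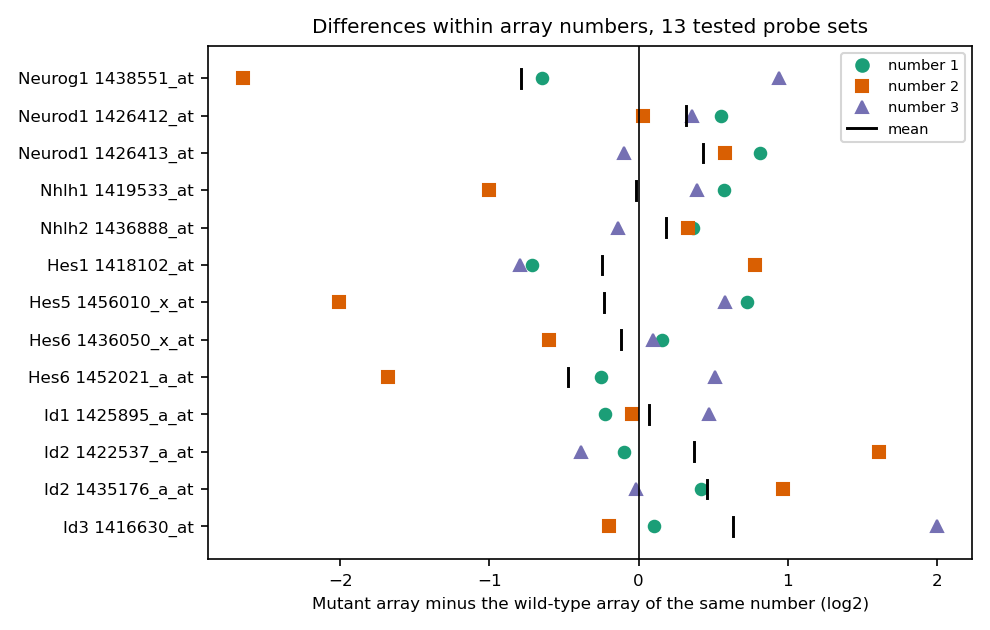
Mutant array minus the wild-type array of the same number (log2, horizontal) for the 13 tested member probe sets, by number, with the mean as a black bar. Signs differ between numbers on 12 of the 13 probe sets; number 2 gives the lowest value for Neurog1 (-2.65), Hes5 (-2.01) and Hes6 1452021_a_at (-1.68), and number 3 the highest for Id3 (2.0).

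The extreme values of the 13 probe sets were spread over all 6 arrays. The lowest of the 6 values fell on wild-type arrays 1, 2 and 3 for 1, 4 and 3 probe sets and on mutant arrays 1, 2 and 3 for 0, 4 and 1, where all probe sets tested had theirs in 10.2%, 14%, 27.3%, 8.61%, 22.4% and 17.6%. The highest fell on wild-type arrays 1, 2 and 3 for 4, 1 and 1 and on mutant arrays 1, 2 and 3 for 5, 0 and 2, beside 18.3%, 13.4%, 24.2%, 15%, 15.9% and 13.2%. Probe sets of 1 gene share their target and were not independent: where a gene had several, the signs of the difference were the same among the tested probe sets of Neurod1, Hes6 and Id2. For Neurog1, Hes5 and the third Id2 probe set the comparison is with an untested probe set at the floor on 4 or 5 of 6 arrays, and no agreement is read from it.

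The genes around the cascade were read from 6 lists, with 1 probe set per gene, and 0 genes of any list passed over all probe sets tested. Their medians lay between -0.04 and 0.28, beside -0.02 over all probe sets. Among 16 other bHLH factors, 14 had a probe set and 8 were tested, 3 lower and 5 higher, with a median of 0.28. The 4 of smallest unadjusted p were Olig2 at 0.53 (SE 0.53), Mxd3, a partner of Max, at -0.21 (SE 0.24), Neurod4 at 0.54 (SE 0.87) and Olig1 at -0.57 (SE 1.02). The E proteins, with which both proneural and Id proteins pair, did not pass: Tcf12 differed by -0.05 (SE 0.33), Tcf4 by 0.02 (SE 0.18) and Tcf3 by -0.25 (SE 1.01). Id4, the remaining Id gene, differed by -0.03 (SE 0.18).

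Of 13 other Hes and Hey repressors and Groucho co-repressors 8 were tested, 3 lower and 5 higher, with a median of 0.14. The co-repressors Tle4 and Tle3 differed by 0.34 (SE 0.27) and -0.19 (SE 0.19), the Notch target Hey2 by 0.64 (SE 0.52) and Hes3 by 0.53 (SE 0.71). In the Notch pathway 20 of 25 genes were tested, 9 lower and 11 higher, with a median of 0.01. There 1 gene had an unadjusted p under 0.05 and 2 had groups that did not overlap, beside 0.457% and 2.63% over all probe sets. These were the receptor Notch1, at 10.24, 10.02 and 9.59 in wild type against 10.44, 10.54 and 10.65 in mutant (0.59, SE 0.25), and Rbpj, the DNA-binding partner of the cleaved receptor, at 10.02, 10.19 and 9.32 against 10.23, 10.26 and 10.19 (0.38, SE 0.28). Limma's adjusted p was 1 for both. For Rbpj the groups were barely apart, with 10.189 on wild-type array 2 and 10.193 on mutant array 3. Both genes had their lowest value on wild-type array 3, the array that stood apart widely. The Notch inhibitor Numb differed by -0.51 (SE 0.58) and Ncstn, a subunit of gamma-secretase, by 0.41 (SE 0.52).

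Of 16 BMP pathway genes, which act upstream of Id transcription, 11 were tested, 4 lower and 7 higher, with a median of 0.01. The signal transducers Smad1 and Smad5 differed by 0.29 (SE 0.22) and 0.57 (SE 0.47), the receptor Acvr1 by -0.80 (SE 0.69) and the inhibitory Smad7 by -0.56 (SE 0.64). All 20 genes listed as targets and partners of the neurogenic cascade were tested, 9 lower and 11 higher, with a median of 0.04. The homeobox factor Lhx2 differed by 0.62 (SE 0.40), the neuronal RNA-binding protein Elavl3 by -0.34 (SE 0.28), and Gadd45g by 0.40 (SE 0.43). Groups that did not overlap were seen for 1 of the 20, beside 2.63% of all probe sets tested, so nothing is read from that count. This was Dcx, a microtubule protein of immature neurons, at 10.18, 10.10 and 10.12 in wild type against 10.05, 9.84 and 9.76 in mutant (-0.25, SE 0.24, limma adjusted p = 1).

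**Figure D4:**
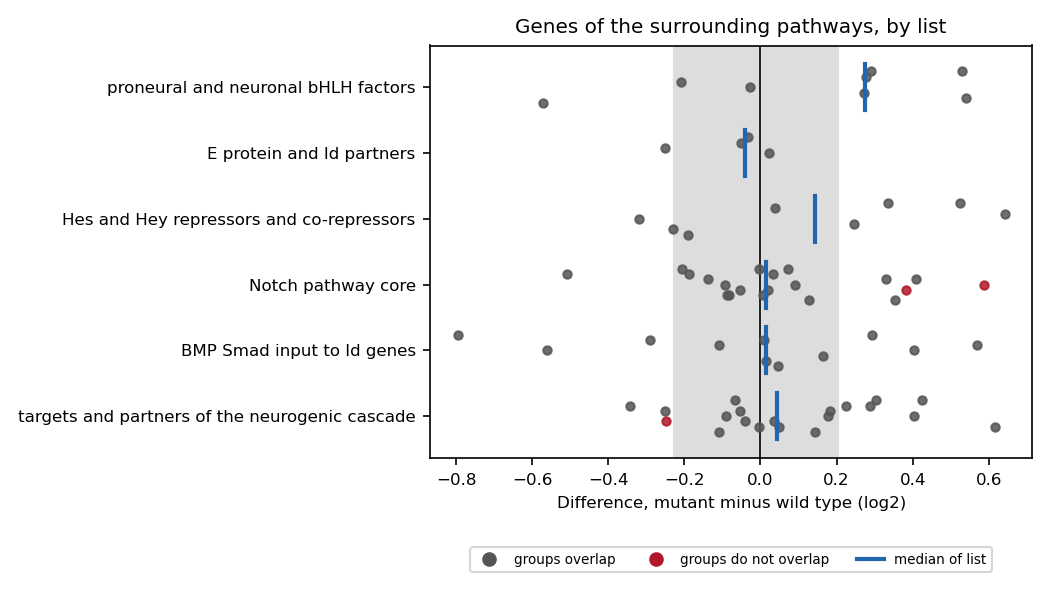
Log2 difference, mutant minus wild type (horizontal), of each tested gene in 6 lists around the cascade, with the list's median as a blue bar, genes whose groups do not overlap in red, and the middle 50% of all probe sets tested as a grey band. The medians run from -0.04 to 0.28; the 3 red points are Notch1, Rbpj and Dcx.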

How the data were processed

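Olfactory epithelium RNA of 6 pups was measured on 1 array each; per the labels' protocols it was amplified and biotin labelled. The authors deposited 1 linear intensity per probe set and array; condensing, background correction and scaling are not given in the sources used here. Groups and replicate numbers come from sample titles.

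Intensities were quantile normalized, set to at least their 20th percentile (12.56; 3.65 in log2), the floor, and log2 transformed, which understates changes near the floor. Probe sets with a mean over the 6 arrays below 5.19, the lowest 40% of the 34945 single-gene probe sets, were left out, which kept 24746 probe sets and 13 of the 16 members. The member means nearest this limit were 5.69 (Hes5 1456010_x_at) and 4.15 (Hes5 1423146_at). The GEO platform annotation gave several symbols for 932 probe sets and none for 9160. Mutant was compared with wild type by limma 3.58.1 (R 4.3.3, lmFit, eBayes with trend, two-sided, Benjamini-Hochberg over all probe sets kept). The code was run on simulated arrays with independent noise, the same SD for all probe sets, and changes larger than any member difference. That run therefore does not show how small a change these arrays could detect. The number of arrays limits the precision.

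Deviations from group means of same-numbered arrays correlated at 0.533, 0.335 and 0.575 across probe sets for numbers 1, 2 and 3, all over 0.1, so the numbers in the titles were taken to pair the arrays; what a number shares is not stated. Deviations within a group cancel, so these correlations are not independent. The SE, intervals and p of the main fit ignore this pairing. The replicate block was an alternative, as were other scalings, floors, filters, probe set choices, variance models and arrays left out. With the block the SE was smaller for most tested member probe sets. Examples are Neurog1 1438551_at (0.663 against 1.043), Hes6 1452021_a_at (0.563 against 0.832) and Id2 1435176_a_at (0.219 against 0.338). Only for Nhlh1 (0.323 against 0.318), Nhlh2 (0.217 against 0.205) and Hes6 1436050_x_at (0.259 against 0.253) was it not smaller. All 16 member probe sets are named; of each of the 6 surrounding lists, each gene's brightest probe set was used and up to 4 genes of smallest unadjusted p are named. Promoter motifs were added as a description. The members and lists were chosen with earlier results of these data known.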

Additional observations from a re-analysis of the deposited data

How the results depend on the processing

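Across 18 alternatives, limma called 0 probe sets overall and 0 member probe sets, with 0 to 2 members at an unadjusted p under 0.05. Of 217 member values, 201 kept their sign and 16 did not. With the replicate block the smallest adjusted p over all probe sets was 0.852, with 350 at an unadjusted p under 0.05 against 113; it changed no call, and member adjusted p stayed at 1. Nhlh1 turned to 0.041 with array medians set equal, 0.1 with no further scaling and 0.09 with array weights. Without both arrays numbered 3, Hes1 turned to 0.034, Id1 to -0.135 and Id3 to -0.048. With 1 array left out at a time, the ranges of those that turned were -0.078 to 0.867 for Neurod1 1426413_at, -0.245 to 0.274 for Nhlh1, -0.732 to 0.416 for Hes5 1456010_x_at, -0.263 to 0.061 for Hes6 1436050_x_at, -0.925 to 0.31 for Hes6 1452021_a_at, -0.28 to 0.443 for Id1 and -0.215 to 0.714 for Id2 1422537_a_at. The cause was not tested. With no further scaling 41.4% of all probe sets tested were lower in the mutant against 52.4%. Signal over background limits the dim probe sets of Hes1, Hes5, Hes6 (1452021_a_at) and Neurog1.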
